A study of Drosophila melanogaster with 23 samples.

Results

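The genes described here are 9 potassium channel genes of the fruit fly, KCNQ, sei, Sh, slo, Slob, eag, Shal, Shab and Shaw, taken by symbol from the 17103 symbols that both deposited count tables hold. All 9 were found in both tables, and all 9 had enough reads to enter every comparison. The study isolated hearts of Drosophila melanogaster, sequenced their polyadenylated RNA and asked how the heart transcriptome changes with age in 2 control strains, and whether loss of Lamin C in young hearts moves the same genes. There were 23 libraries in 5 groups. The w1118 strain gave 4 libraries at 5 weeks of age and 4 at 1 week; the attp2 strain gave 5 with LamC RNAi at 1 week, 5 controls at 5 weeks and 5 controls at 1 week. The RNAi against LamC, the gene of the A-type lamin, was driven by the Hand promoter, which is active in heart cells; the labels give the control groups no RNAi. The labels used here give neither the sex of the flies nor the number of hearts per library, and do not say whether replicates stem from separate pools of flies. A p-value below therefore sets a group difference against library-to-library spread only, which can be technical in part.

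Potassium channels let potassium leave the cell, which ends the electrical spike of a muscle cell or neuron and sets how soon the next can start. The Shaker family, founded on the fly genes Sh, Shab, Shal and Shaw, opens with voltage; the EAG family holds eag and sei, the fly gene closest to human hERG; KCNQ is the fly gene of a slow voltage-gated family; and slo encodes the large-conductance BK channel, which calcium and voltage open together. Slob is not a channel: it encodes a cytoplasmic protein that binds the Slo channel and alters its gating. In flies, loss of KCNQ gives an arrhythmic heartbeat, and sei and slo have likewise been studied as repolarising channels of the heart.

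Total counts ranged from 21.8 to 90.0 M per library (M, mega). LamC, the target of the RNAi, had 155, 199, 87.4, 172 and 132 CPM (reads of the gene per mega of counted reads) in the libraries labelled LamC RNAi, against 186, 222, 138, 148 and 163 CPM in attp2 at 1 week. The groups overlapped, at a log2 fold change of −0.20 ± 0.20 (SE; edgeR adjusted p = 0.628), so the level of LamC did not separate these groups. Heart marker genes were present in every group, and their summed level, most of it Hand, overlapped between all groups compared: Hand had 399 to 657 CPM in w1118 at 5 weeks and 403 to 525 CPM in w1118 at 1 week, while Doc2 was near 0 throughout. Of the 8 heart markers tested, tin (3.82 to 8.88 CPM at 5 weeks and 10.5 to 12.5 CPM at 1 week) and H15 (40.5 to 69.6 CPM at 5 weeks and 81.0 to 101 CPM at 1 week) were nevertheless lower with age in w1118 (edgeR), without overlap. All old libraries were also below all young ones for mid and Doc3, which did not pass (edgeR adjusted p = 0.0914 and 0.0762). Groups thus did not overlap for 4 of the 8, against 17.3% of all genes. The median log2 fold change of the 8 was −0.78 in w1118, against 0.01 over all genes. H15 and Doc3 were lower with age in attp2, tin was lower in LamC RNAi hearts than in attp2 at 1 week, and Doc3 was higher in LamC RNAi hearts than in attp2 at 5 weeks. The part of these shifts in the members' results was not tested. The 10 gut markers summed to 521 CPM in LamC RNAi library 3, to 12290 CPM in attp2 library 3 at 5 weeks and 650 CPM in attp2 library 4 at 5 weeks, to 8575 CPM in attp2 library 3 at 1 week, and to at most 234 CPM in each of the other libraries. The 6 ovary markers summed to at most 352 CPM in LamC RNAi hearts (median 3.74) and 69.5 CPM in any control library. The 4 Malpighian tubule markers reached 52.3 CPM in LamC RNAi hearts (median 7.32) and 73.2 CPM in attp2 at 5 weeks (median 17.1). The part of ovary and tubule RNA in the members' results was not tested. The 7 markers of fat body and oenocyte, chiefly Cyp4g1, summed far higher in every library. The lowest sum was 88161 CPM (w1118 at 1 week) and the highest 227120 CPM (attp2 at 1 week). The ranges overlapped in each comparison, but Lsd-1 was lower with age in attp2 (edgeR adjusted p = 0.00196). The part of fat body and oenocyte RNA in the members' results was not tested. In bulk tissue, fewer cells of a type and less RNA per cell cannot be told apart.

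Compared per kilobase of annotated exon, the highest of the 9 transcripts were Slob, Shaw and Shal, and the lowest in all 5 groups was eag. Slob averaged 9.26 ± 3.15 CPM per kilobase in w1118 at 5 weeks and 12.2 ± 2.02 in w1118 at 1 week (SD, n = 4 each). It averaged 3.79 ± 1.42 CPM per kilobase in LamC RNAi hearts, 4.32 ± 1.14 in attp2 at 5 weeks and 7.75 ± 0.98 in attp2 at 1 week (SD, n = 5 each). Slob ranked first in both w1118 groups and in attp2 at 1 week, behind Shaw in attp2 at 5 weeks, and behind Shaw and Shal in LamC RNAi hearts. Shaw lay between group means of 5.73 and 7.46 CPM per kilobase and Shal between 3.94 and 6.27. In w1118 the ranges of Slob and Shaw overlapped at both ages, as did those of Shaw and Shal, so their order there is not fixed by these libraries; in attp2 at 1 week the 3 did not overlap one another.

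The middle of the order held sei, with group means of 2.34 to 4.18 CPM per kilobase, followed by slo (0.80 to 2.45), KCNQ (1.06 to 1.85) and Shab (1.04 to 1.70). These last 3 overlapped with at least one neighbour in every group and changed places between groups. Sh came eighth in each group, at 0.31 to 0.68 CPM per kilobase, and did not overlap eag, which averaged 0.05 to 0.12. The deepest count of eag in a library was 200 reads, with an exact Poisson 95% interval of 173 to 230 for counting error only, and the shallowest was 11 reads, with an interval of 5.49 to 19.7. The lengths are unions of all annotated exons, which for Sh span 22.8 kilobases over 17 transcripts and for slo 10.2 kilobases over 23 transcripts. Per kilobase of the longest transcript, Sh and slo had higher values, 0.59 and 0.91 in w1118 at 5 weeks against 0.31 and 0.80. By that length Sh stayed at rank 8 in each group. The rank of slo went from 6 to 7 in w1118 and attp2 at 1 week. It went from 5 to 4 in LamC RNAi hearts and stayed at 7 in both strains at 5 weeks. In w1118 at 1 week, 5 members kept their rank, and Shab passed sei, with overlapping ranges.

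**Figure D1:**
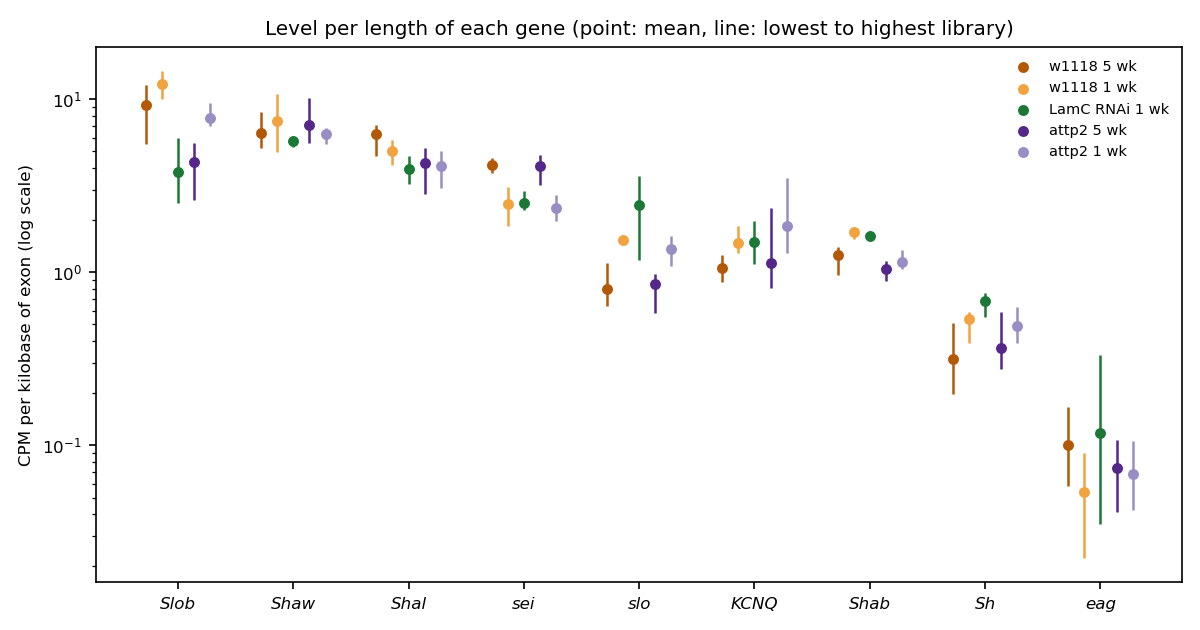
Level of each gene in CPM per kilobase of exon (log axis), with a point for the group mean and a line from the lowest to the highest library, for the 5 groups. Slob, Shaw and Shal stand at the top and eag, at 0.05 to 0.12, at the bottom; the line of KCNQ is long in both attp2 groups and the line of slo in LamC RNAi hearts.

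Age was compared first within w1118, 5 weeks against 1 week. The BK channel gene slo fell and the hERG-type gene sei rose; the other 7 did not pass the test. These 2 of 9 members stand beside 8.91% of all 9631 genes tested that were called in either direction. The members' median log2 fold change was −0.40, against 0.01 over all genes. Groups did not overlap for 4 of 9 members (KCNQ, sei, slo and Shab), against 17.3% of all genes.

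The gene slo lies on chromosome 3R from 24662491 to 24711595, plus strand (all positions are from the BDGP6.54 annotation, whose coordinates are those of dm6). It had 6.91, 6.49, 11.4 and 7.58 CPM in w1118 hearts at 5 weeks, against 15.2, 16.7, 14.8 and 15.5 CPM at 1 week. Every library at 5 weeks was below every library at 1 week, and the coefficient of variation was 27.9% among the 4 old libraries and 5.1% among the 4 young ones. The log2 fold change was −0.94 ± 0.18 (SE; 95% interval −1.33 to −0.55; edgeR adjusted p = 0.0119), and it stayed past the threshold without any 1 of the 8 libraries.

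Its partner Slob, on chromosome 2L from 7642005 to 7675078, minus strand, was less clear in this strain. Slob had 57.4, 40.6, 89.0 and 85.6 CPM in w1118 at 5 weeks, against 106, 97.6, 82.5 and 73.4 CPM at 1 week. The groups overlapped: libraries 3 and 4 at 5 weeks lay within the young range and libraries 1 and 2 below it. Slob was at −0.40 ± 0.24 on the log2 scale (edgeR adjusted p = 0.316), with an interval of −0.92 to 0.12.

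Of the EAG family, sei lies on chromosome 2R from 24047411 to 24053035, plus strand. It had 14.96, 14.97, 12.2 and 12.7 CPM in w1118 at 5 weeks, against 6.10, 8.37, 7.68 and 10.2 CPM at 1 week. All old libraries were above all young ones. Thus sei rose by 0.76 ± 0.16 on the log2 scale (edgeR adjusted p = 0.0211), a 1.70-fold higher level. The call depended on single libraries: without either of young libraries 2 and 3 or either of old libraries 1 and 2 the adjusted p of sei was 0.0574 to 0.0691.

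The related gene eag, on chromosome X from 14955477 to 15009989, plus strand, was near the lower end of what these libraries could measure. It had 1.00, 0.62, 0.91 and 1.77 CPM in w1118 at 5 weeks, against 0.97, 0.24, 0.49 and 0.61 CPM at 1 week. The groups overlapped. Its log2 fold change of 0.89 ± 0.51 (edgeR adjusted p = 0.304) had an interval from −0.25 to 2.04, wide enough to hold both no change and a large rise.

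KCNQ, on chromosome 2R from 10145897 to 10192394, minus strand, had 3.41, 3.51, 4.90 and 4.54 CPM in w1118 at 5 weeks, against 5.84, 4.98, 7.15 and 4.99 CPM at 1 week. All old libraries were below all young ones, though the nearest pair differed little. KCNQ was at −0.49 ± 0.19 on the log2 scale (edgeR adjusted p = 0.141), which did not pass.

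In the Shaker family, Shab showed separated groups and Sh the larger difference. Shab encodes a delayed rectifier and lies on chromosome 3L from 2895017 to 2959579, plus strand. It had 15.9, 10.9, 15.1 and 15.2 CPM in w1118 at 5 weeks, against 20.8, 20.1, 18.6 and 17.7 CPM at 1 week. The old libraries were all lower, with a log2 fold change of −0.44 ± 0.13 (edgeR adjusted p = 0.0700; DESeq2 adjusted p = 0.0304). Sh, which encodes the fast-inactivating A-type channel, lies on chromosome X from 17924307 to 18063247, minus strand. Its levels were 4.50, 5.47, 7.19 and 11.6 CPM at 5 weeks, against 13.2, 13.3, 13.4 and 8.93 CPM at 1 week in w1118. One library of each age crossed into the other group's range. The log2 fold change of Sh was −0.76 ± 0.27 (edgeR adjusted p = 0.108); it was −1.09 (adjusted p = 0.0158) without old library 4, and DESeq2 on all libraries gave an adjusted p of 0.0465.

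The other A-type gene of the family, Shal (chromosome 3L from 19566851 to 19584568, minus strand), and Shaw, a channel gene with weak voltage dependence (chromosome 2L from 3718185 to 3729145, plus strand), did not pass. Shal had 32.2, 32.4, 21.6 and 29.3 CPM in w1118 at 5 weeks, against 25.2, 21.6, 26.9 and 19.2 CPM at 1 week (log2 fold change 0.31 ± 0.16, edgeR adjusted p = 0.238). Shaw had 26.5, 32.2, 42.0 and 26.1 CPM at 5 weeks, against 53.8, 38.4, 32.2 and 24.8 CPM at 1 week in w1118 (−0.24 ± 0.23, edgeR adjusted p = 0.572). Young libraries of Shaw alone ranged from 24.8 to 53.8 CPM, so a moderate difference was not detectable for this gene.

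Some marker sums of other tissues differed with age in w1118. The 7 genes listed for body wall and flight muscle summed to 159 to 204 CPM at 5 weeks and 250 to 329 CPM at 1 week. Most of it came from flr (107 to 147 CPM at 5 weeks and 166 to 231 CPM at 1 week) and tnc (23.9 to 53.7 CPM at 5 weeks and 61.8 to 97.1 CPM at 1 week). Act88F, which marks flight muscle, overlapped, at 0.65 to 1.59 CPM at 5 weeks and 0.39 to 11.6 CPM at 1 week. Act79B averaged 2.15 CPM at 5 weeks and 4.03 CPM at 1 week. In any w1118 library TpnC4, fln and TpnC41C were at most 3.87 CPM. The sum thus followed flr and tnc, which are not specific to muscle, so it is not a measure of muscle tissue. Whether the amount of muscle tissue differed was not tested. The 9 haemocyte markers summed to 1214 to 1898 CPM at 5 weeks and 2812 to 3362 CPM at 1 week. With edgeR 5 of the 9 were lower and 1, crq, was higher (457 to 626 CPM at 5 weeks, 297 to 427 CPM at 1 week). Neuronal markers, of interest because neurons use all these channels, summed to 25.5 to 54.3 CPM at 5 weeks and 25.5 to 42.1 CPM at 1 week, 0 of 10 tested passed with edgeR (0 with an unadjusted p under 0.05), and VGlut, of the glutamatergic motor neurons, was at or near 0 at both ages. The part of muscle and blood cells in the changes of slo and sei was not tested.

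**Figure D2:**
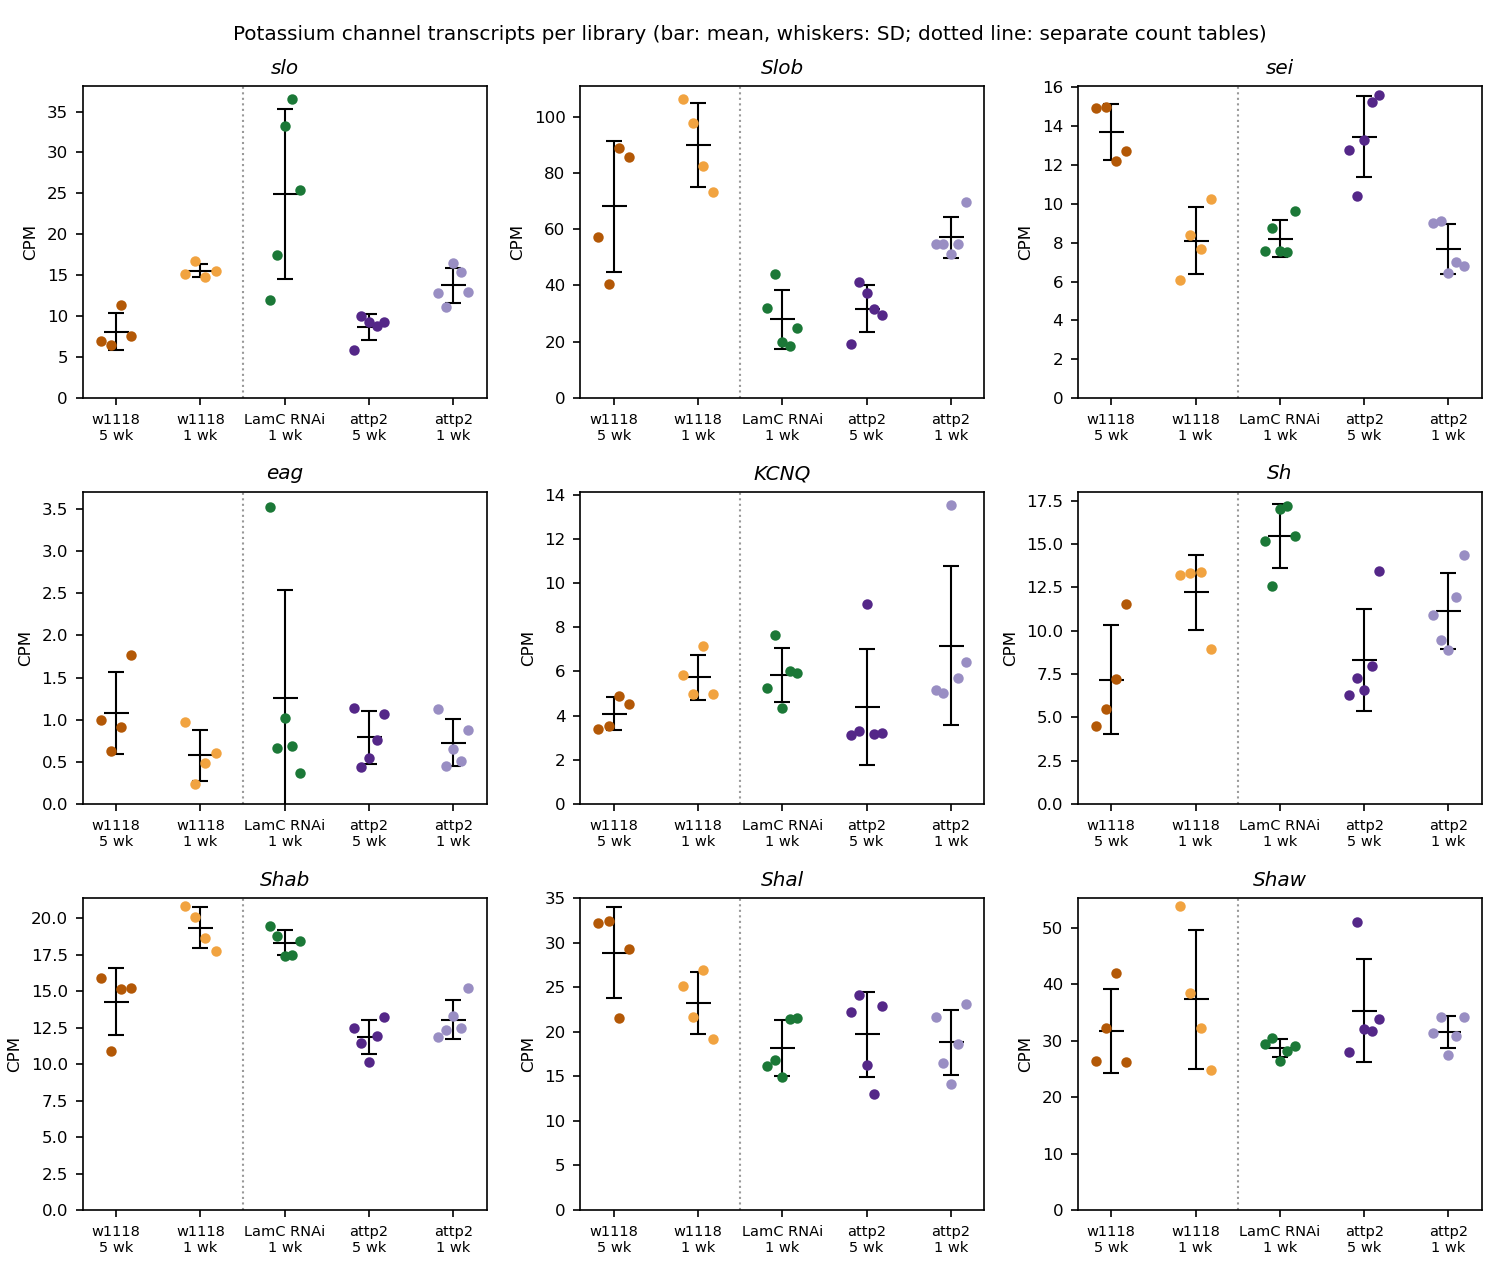
Level of each of the 9 genes in CPM on a linear axis, a point per library, with the group mean (bar) and SD (whiskers; for eag in LamC RNAi hearts the lower whisker ends at the axis) in the 5 groups, and a dotted line between the 2 count tables. For sei, the old libraries stand above the young ones in both strains; for slo they stand below them, and the LamC RNAi libraries spread from 11.9 to 36.6 CPM.

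Age in attp2, 5 weeks against 1 week, was fitted on a separate table together with the RNAi libraries. The gene sei rose again, and here Slob fell, while slo was lower in every old library without passing the test. The 2 of 9 members called compare with 20.1% of 10044 genes called in either direction, a share near that background. The members' median log2 fold change was −0.14, against 0.03 over all genes. Groups did not overlap for 3 of 9 (sei, slo and Slob), against 17.1% of all genes.

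Levels of sei were 12.8, 10.4, 13.3, 15.3 and 15.6 CPM in attp2 at 5 weeks, against 9.04, 9.12, 6.46, 6.99 and 6.82 CPM at 1 week. No old library reached down to the young range. With age sei rose by 0.81 ± 0.14 on the log2 scale (95% interval 0.52 to 1.10; edgeR adjusted p = 0.00115), a 1.75-fold higher level, and the value stayed between 0.75 and 0.89 when any 1 library was left out. The exact permutation test of the mean CPM gave p = 0.00794 (two-sided), the smallest that 5 against 5 libraries allow.

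Exons of sei overlap those of 2 genes on the opposite strand, gammaSnap1 over 359 bases (11% of the sei exon length) and ppk29 over 119 bases (3.63%). Library preparation kept the strand, but the sources used here do not give whether reads were counted by strand. In attp2, gammaSnap1 rose with age, by 0.59 ± 0.14 on the log2 scale (edgeR adjusted p = 0.0102), and ppk29 was at 0.91 ± 0.31 (adjusted p = 0.0522). In w1118 the values were 0.27 ± 0.16 for gammaSnap1 (adjusted p = 0.330) and 0.80 ± 0.50 for ppk29 (adjusted p = 0.341). The level of ppk29 was at most 1.70 CPM in any library, below every value of sei. Whether reads of gammaSnap1 entered the counts of sei was not tested.

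Slob had 19.1, 41.1, 37.3, 31.5 and 29.6 CPM in attp2 at 5 weeks, against 54.9, 54.6, 51.3, 54.8 and 69.7 CPM at 1 week. The old libraries were all lower, and 4 of the 5 young ones lay between 51.3 and 54.9 CPM. Slob fell by 0.85 ± 0.24 on the log2 scale (edgeR adjusted p = 0.0216). Without library 5 of either age the adjusted p was 0.0533 or 0.0529.

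The channel it binds, slo, had 5.88, 9.98, 9.33, 8.82 and 9.25 CPM in attp2 at 5 weeks, against 12.9, 11.1, 16.5, 15.4 and 12.9 CPM at 1 week. Old and young libraries did not overlap here either. The log2 fold change of −0.67 ± 0.26 missed the threshold in the fit shared with the RNAi libraries (edgeR adjusted p = 0.0834) and passed it when only the 2 age groups were fitted (adjusted p = 0.0146) or with DESeq2 (adjusted p = 0.0414). The spread of slo in the shared fit includes that of the LamC RNAi libraries, whose coefficient of variation was 41.6%, against 18.6% in attp2 at 5 weeks and 15.7% at 1 week.

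KCNQ had 3.14, 3.29, 9.06, 3.17 and 3.22 CPM in attp2 at 5 weeks, against 5.17, 5.01, 13.5, 5.71 and 6.44 CPM at 1 week. In each group library 3, which carried 12290 CPM of gut markers at 5 weeks and 8575 CPM at 1 week, held by far the highest level, and the other libraries of the 2 ages did not overlap. Old library 4, with 650 CPM of gut markers, held 3.17 CPM of KCNQ. Over all libraries the log2 fold change was −0.71 ± 0.35 (edgeR adjusted p = 0.179). Leaving out the 4 libraries with over 500 CPM of gut markers, an alternative chosen after seeing the data, gave −0.79 ± 0.15 (adjusted p = 0.00637), leaving out only old library 3 gave −1.16 (adjusted p = 0.0128), and leaving out only young library 3 gave −0.35 (adjusted p = 0.474). The first of these alternatives leaves 3 old and 4 young libraries. The fold change of KCNQ with age was negative in both strains, and its call in attp2 depended on the libraries with gut RNA.

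Antisense exons overlap KCNQ as well, those of the noncoding gene CR45133 over 798 bases (20.6% of the KCNQ exon length) and those of CG18011 over 265 bases (6.84%). CR45133 had 38 reads (0.73 CPM) in attp2 library 3 at 5 weeks and 47 reads (1.18 CPM) in attp2 library 3 at 1 week, and at most 0.21 CPM in the other libraries of that table. CG18011 did not stand out there, with 4.56 CPM in library 3 at 5 weeks and 5.16 CPM in library 3 at 1 week, each the lowest of its group. The high KCNQ value thus came with gut markers and with CR45133 in the same pair of libraries; the part of each was not tested.

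**Figure D3:**
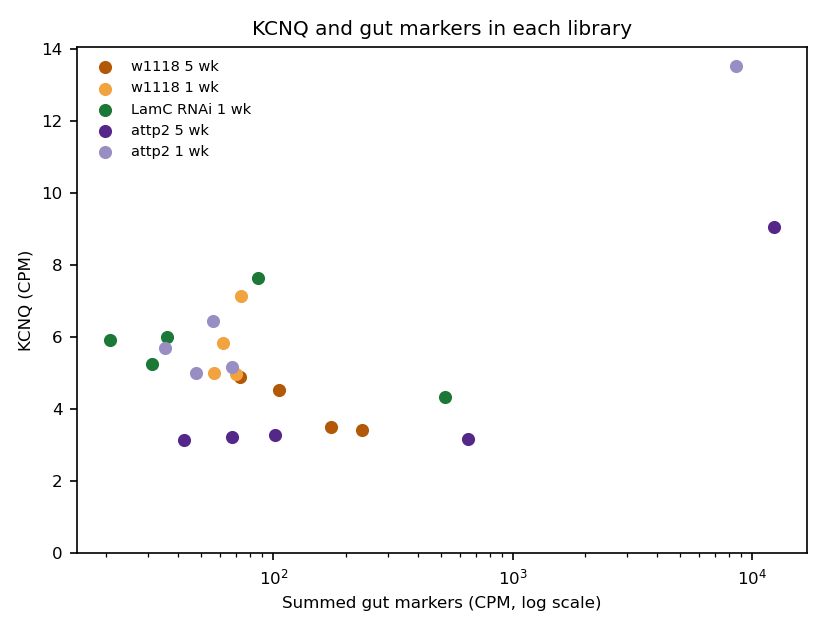
KCNQ in CPM (linear axis) against the summed level of the 10 gut markers in CPM (log axis), a point per library, coloured by group. The attp2 library at 12290 CPM of gut markers (5 weeks) holds 9.06 CPM of KCNQ and that at 8575 CPM (1 week) 13.5 CPM, the 2 highest levels; the attp2 libraries at 5 weeks otherwise sit at 3.14 to 3.29 CPM.

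The remaining members did not pass in attp2. Sh had 6.27, 7.29, 6.61, 7.99 and 13.4 CPM at 5 weeks, against 10.9, 9.44, 8.90, 11.96 and 14.4 CPM at 1 week (log2 fold change −0.42 ± 0.20, edgeR adjusted p = 0.163). As in w1118, 1 old library lay within the young range, and without it (library 5) the log2 fold change of Sh was −0.66 (adjusted p = 0.0101). Shab had 12.5, 11.4, 10.2, 11.9 and 13.2 CPM at 5 weeks, against 11.9, 12.3, 13.3, 12.4 and 15.2 CPM at 1 week (−0.14 ± 0.09, edgeR adjusted p = 0.309). Levels of Shab overlapped here, unlike in w1118. Shal at −0.33 to 0.46, Shaw at −0.12 to 0.45 and eag at −1.03 to 1.27 had 95% intervals of the log2 fold change on both sides of 0, which for eag leaves more than a 2-fold difference either way undetected with this spread between libraries.

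Marker sums of other tissue in attp2 differed with age partly as in w1118. Haemocyte markers summed to 1191 to 1470 CPM at 5 weeks and 2975 to 3915 CPM at 1 week. With edgeR 8 of the 9 were lower and 1, crq, was again higher (529 to 756 CPM at 5 weeks, 342 to 444 CPM at 1 week). The body wall and flight muscle list, again mostly flr and tnc, summed to 126 to 182 CPM at 5 weeks and 161 to 213 CPM at 1 week, which overlapped. Neuronal markers summed to 32.9 to 51.7 CPM at 5 weeks and 32.1 to 46.1 CPM at 1 week, again overlapping, but 1 of the 11 tested, onecut, was higher (edgeR adjusted p = 0.0175), with 1.52 to 2.47 CPM at 5 weeks and 0.96 to 1.46 CPM at 1 week. The part of these tissues in the changes of sei and Slob was not tested.

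Whether age acted differently in the 2 strains was tested with an interaction term in a fit of the 18 libraries without RNAi; strain and count table cannot be told apart in it. With edgeR, 0 of 9 members passed, against 0.761% of 10387 genes; 0 members had an unadjusted p under 0.05, against 14.9% of all genes, and DESeq2 called 0. For slo the difference of the 2 age effects (attp2 minus w1118) was 0.30 ± 0.25 on the log2 scale, with an interval of −0.22 to 0.81, and for Slob −0.42 ± 0.32, with an interval of −1.10 to 0.25. For sei it was 0.07 ± 0.22, with an interval of −0.40 to 0.55. So the calls of slo in w1118 alone and of Slob in attp2 alone are not shown to differ between strains. Shab had the lowest adjusted p of the 9 (0.376), at 0.33 ± 0.16.

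**Figure D4:**
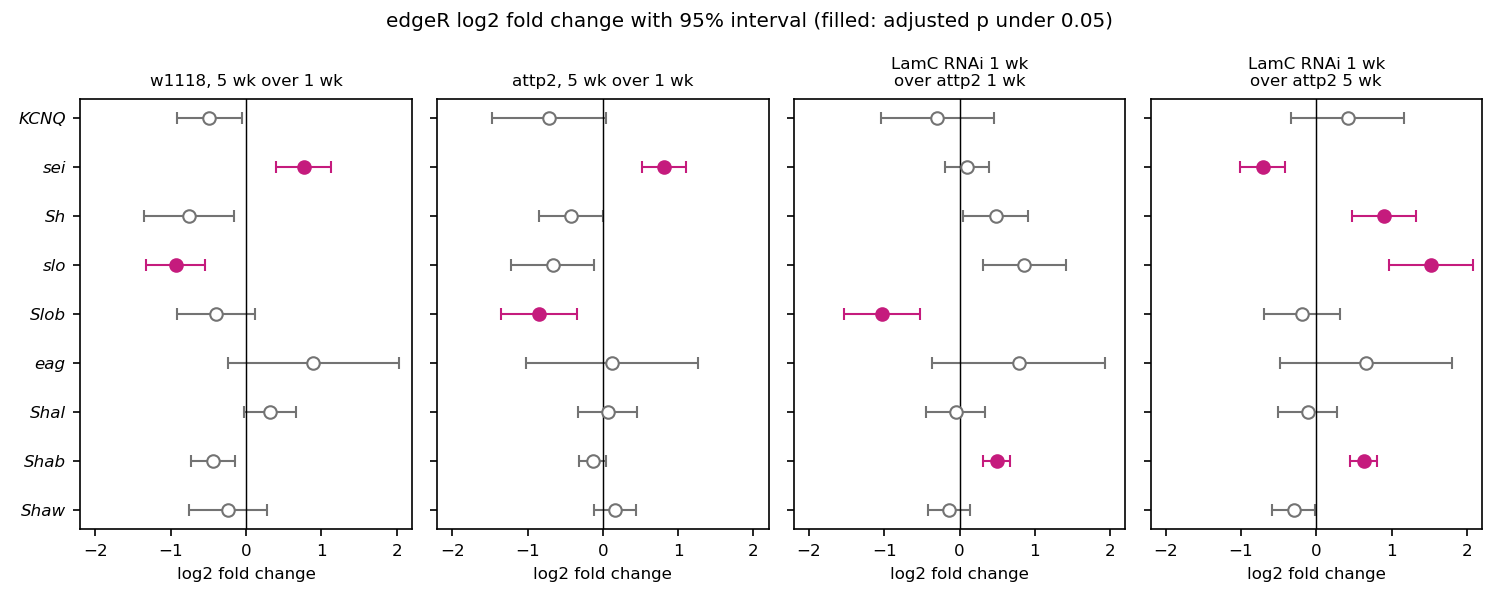
Log2 fold change of the 9 genes with its 95% interval in 4 comparisons, w1118 at 5 weeks over 1 week, attp2 at 5 weeks over 1 week, LamC RNAi over attp2 at 1 week, and LamC RNAi at 1 week over attp2 at 5 weeks; filled points passed an adjusted p of 0.05. The points of sei lie at 0.76 and 0.81 with age, and those of slo at −0.94 and −0.67.

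Young hearts labelled LamC RNAi were then compared with attp2 hearts of the same age. Shab rose and Slob fell, and the other 7 members did not pass. The 2 of 9 members called compare with 2.41% of 10044 genes called in either direction. Median log2 fold changes were 0.10 over the members and 0.03 over all genes. For Shab and Slob, 2 of 9 members, the groups did not overlap, against 5% of all genes. The comparison uses the same 1-week attp2 libraries as the age comparison in attp2, so the 2 are not independent.

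Shab had 19.4, 18.7, 17.4, 17.5 and 18.4 CPM in LamC RNAi hearts, against 11.9, 12.3, 13.3, 12.4 and 15.2 CPM in attp2 at 1 week. All RNAi libraries were higher, and they were tight, with a coefficient of variation of 4.7% where counting error alone gives 3.0%. Shab rose by 0.49 ± 0.09 on the log2 scale (95% interval 0.31 to 0.68; edgeR adjusted p = 0.0101), a 1.41-fold higher level, and passed without any 1 library.

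Slob had 32.0, 44.1, 19.9, 18.6 and 25.0 CPM in LamC RNAi hearts, against 54.9, 54.6, 51.3, 54.8 and 69.7 CPM in attp2 at 1 week. All RNAi libraries were lower, and libraries 3, 4 and 5 were the lowest. Slob fell by 1.03 ± 0.24 on the log2 scale (edgeR adjusted p = 0.0354), to 0.49 times the level of attp2. The size held but the call did not: with 1 library left out, the log2 fold change ranged from −1.26 to −0.92 and the adjusted p reached 0.0932, and 9 of 10 such fits missed the threshold. When only these 2 groups were fitted the adjusted p was 0.0545, and leaving out the 4 gut-containing libraries gave −0.97 with an adjusted p of 0.152.

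The BK channel gene had higher values in most RNAi libraries, without passing. The level of slo was 11.9, 17.4, 33.2, 36.6 and 25.4 CPM in LamC RNAi hearts, against 12.9, 11.1, 16.5, 15.4 and 12.9 CPM in attp2 at 1 week. Libraries 3, 4 and 5 of the RNAi group were above every attp2 library, library 2 just above the highest of them and library 1 within their range. The log2 fold change of slo was 0.86 ± 0.26 (edgeR adjusted p = 0.0976; DESeq2 adjusted p = 0.0237), and without LamC RNAi library 1 it was 1.03 (edgeR adjusted p = 0.0295).

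Within the RNAi group, the libraries with the most slo had the least Slob. The ratio of Slob to slo counts in a library, a measure chosen after seeing the values and given as a description, ran from 0.51 to 2.68 in LamC RNAi hearts (median 0.98). It ran from 3.20 to 4.12 in attp2 at 5 weeks and from 3.11 to 5.38 in attp2 at 1 week. In w1118 it was 6.26 to 11.3 at 5 weeks and 4.74 to 7.001 at 1 week. The RNAi libraries thus lay below every control library in this ratio, while old and young attp2 libraries, in which both genes were lower at 5 weeks, overlapped. Levels of the 2 strains come from separate tables and are set side by side only.

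**Figure D5:**
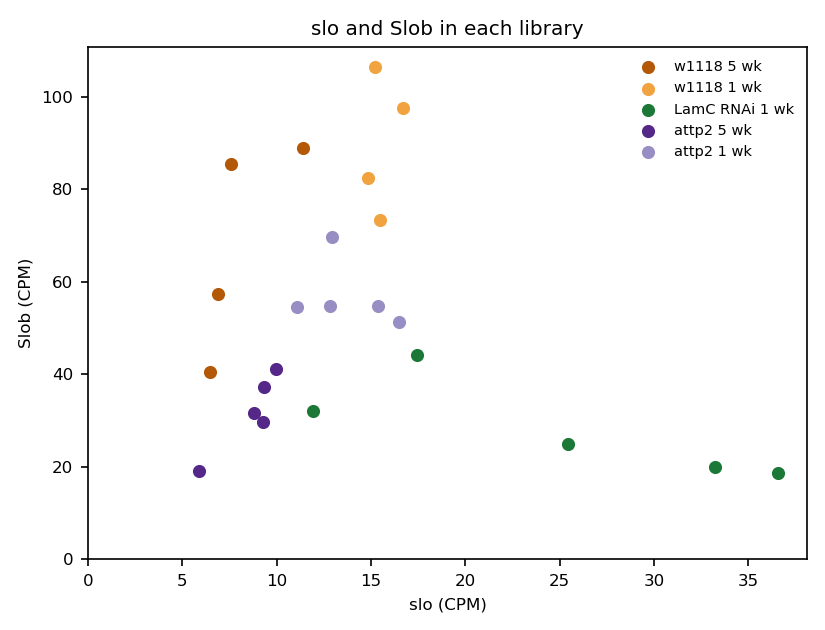
Slob against slo, both in CPM on linear axes, a point per library, coloured by group. LamC RNAi libraries run toward high slo (up to 36.6 CPM) and low Slob (down to 18.6 CPM), and attp2 libraries at 5 weeks lie below and to the left of those at 1 week.

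The other 6 members did not pass either. Sh had 15.2, 12.6, 17.0, 17.2 and 15.5 CPM in LamC RNAi hearts, against 10.9, 9.44, 8.90, 11.96 and 14.4 CPM in attp2 at 1 week (log2 fold change 0.48 ± 0.20, edgeR adjusted p = 0.211). Only library 2 of the RNAi group and library 5 of attp2 crossed. KCNQ had 5.25, 7.65, 4.35, 6.01 and 5.92 CPM in LamC RNAi hearts, against 5.17, 5.01, 13.5, 5.71 and 6.44 CPM in attp2 at 1 week, where the 13.5 CPM belonged to the library with gut markers; the log2 fold change was −0.30 ± 0.35 (edgeR adjusted p = 0.686), and 0.15 ± 0.14 without the 4 libraries with gut transcripts. For eag, LamC RNAi library 1 held 3.52 CPM, while the other 4 held 0.37 to 1.01 CPM and attp2 libraries at 1 week 0.45 to 1.13 CPM. The eag value of 0.78 ± 0.54 (edgeR adjusted p = 0.449) rested on that library and was −0.08 without it. The hERG-type gene sei had 7.57, 8.76, 7.58, 7.50 and 9.64 CPM in LamC RNAi hearts, against 9.04, 9.12, 6.46, 6.99 and 6.82 CPM in attp2 at 1 week, and the groups overlapped. Its log2 fold change was 0.10 ± 0.14 (edgeR adjusted p = 0.751), with an interval of −0.20 to 0.39. Intervals were −0.45 to 0.34 for Shal and −0.42 to 0.14 for Shaw.

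Marker sums beside these values were 3703 to 5808 CPM in LamC RNAi hearts and 2975 to 3915 CPM in attp2 at 1 week for haemocytes. For the body wall and flight muscle list, mostly flr and tnc, they were 120 to 184 CPM in LamC RNAi hearts and 161 to 213 CPM in attp2 at 1 week. Neuronal markers summed to 35.1 to 51.9 CPM in LamC RNAi hearts and 32.1 to 46.1 CPM in attp2 at 1 week. All 3 pairs of ranges overlapped. Some single markers did not overlap. Of 9 haemocyte markers NimC1 was higher, at 333 to 454 CPM in LamC RNAi hearts and 153 to 209 CPM in attp2 at 1 week. Of 5 genes tested from the body wall and flight muscle list, tnc was lower, at 19.3 to 44.4 CPM in LamC RNAi hearts and 50.6 to 72.8 CPM in attp2 at 1 week. It is not specific to muscle. Levels of flr, the larger part of that sum, overlapped, at 99.1 to 136 CPM in LamC RNAi hearts and 107 to 155 CPM in attp2 at 1 week. Of 11 neuronal markers tested 0 passed with edgeR (1 with an unadjusted p under 0.05). Syt1 nevertheless did not overlap, at 2.95 to 4.93 CPM in LamC RNAi hearts and 1.66 to 2.78 CPM in attp2 at 1 week. Its edgeR adjusted p was 0.130. The part of these tissues in the changes of Shab and Slob was not tested.

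LamC RNAi hearts at 1 week were last set beside attp2 hearts at 5 weeks, which differ in both age and RNAi. Here slo, Sh and Shab were higher and sei lower in the RNAi hearts, 4 of 9 members, against 19.2% of 10044 genes called in either direction. Groups did not overlap for 3 of 9 (sei, slo and Shab), against 13% of all genes. The members' median log2 fold change was 0.42, against 0.01 over all genes. All libraries in this comparison also serve in a comparison above.

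The largest of the 4 was slo, at 1.53 ± 0.26 on the log2 scale (edgeR adjusted p = 0.00126), a 2.88-fold higher level, with 11.9 to 36.6 CPM in LamC RNAi hearts and 5.88 to 9.98 CPM in attp2 at 5 weeks. Sh rose by 0.90 ± 0.20 (edgeR adjusted p = 0.00669), with the ranges crossing only through attp2 library 5 at 13.4 CPM; without the libraries with gut transcripts it was 0.74 (adjusted p = 0.0692). Shab rose by 0.63 ± 0.09 (edgeR adjusted p = 2.69e-04) and sei fell by 0.71 ± 0.14 (edgeR adjusted p = 0.00270). The antisense neighbour of sei, gammaSnap1, was also lower in the RNAi hearts than in old attp2, at −0.70 ± 0.14 (edgeR adjusted p = 0.00404). Slob, at −0.19 ± 0.23 (edgeR adjusted p = 0.608), had 18.6 to 44.1 CPM in LamC RNAi hearts and 19.1 to 41.1 CPM in attp2 at 5 weeks, an almost complete overlap. KCNQ was at 0.42 ± 0.35 (adjusted p = 0.425) with all libraries and at 0.95 ± 0.15 (edgeR adjusted p = 0.00256) without the 4 libraries with gut transcripts. Haemocyte markers summed to 3703 to 5808 CPM in LamC RNAi hearts, against 1191 to 1470 CPM in attp2 at 5 weeks. Neuronal markers summed to 35.1 to 51.9 CPM in LamC RNAi hearts and 32.9 to 51.7 CPM in attp2 at 5 weeks. Of 11 neuronal markers tested 1 was higher in the RNAi hearts with edgeR. Of 5 body wall and flight muscle markers tested 1 was lower, and of 7 fat body and oenocyte markers 2 were higher. The part of these tissues in the members' results was not tested.

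Across the 3 comparisons of the attp2 table, the members can be read side by side, since the comparisons share libraries. Shab was at 0.49 with RNAi and −0.14 with age, and Slob at −1.03 with RNAi and −0.85 with age. The channel gene slo was at 0.86 with RNAi and −0.67 with age, and sei at 0.10 and 0.81. Each pair of values rests on the same young control libraries.

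A list of 22 other potassium channel genes and channel partners was examined beside the 9. In w1118, 18 were tested, 0 were higher and 3 lower at 5 weeks: SK, the small-conductance calcium-activated channel (−0.84 ± 0.19), and the leak channel genes sand (−1.40 ± 0.20) and galene (−0.67 ± 0.18). Of these, sand averaged 17.0 CPM in w1118 at 5 weeks and 44.9 CPM at 1 week. In attp2, 19 were tested, of which 4 were higher and 6 lower at 5 weeks. The 6 were Elk, another EAG family gene (−0.68 ± 0.18), the leak channel genes Ork1 (−1.31 ± 0.30), galene (−0.71 ± 0.13) and sand (−0.97 ± 0.16), Hk, the beta subunit of the Shaker channel (−0.71 ± 0.16), and qvr, also called sleepless, which binds Shaker (−1.20 ± 0.25). The 4 were the Slo-interacting protein gene Slip1 (0.49 ± 0.09), calmodulin Cam (0.26 ± 0.09), 14-3-3zeta, whose protein binds Slob (0.25 ± 0.07), and CASK (0.27 ± 0.08). Several of these calls were marginal. In w1118, sand passed without any 1 library, but SK was lost in 5 of 8 such fits (edgeR adjusted p up to 0.0785) and galene, whose groups overlapped, in 7 of 8 (up to 0.107) and with the replicate block (0.0543). In attp2, Cam was lost in 9 of 10 (edgeR adjusted p up to 0.111) and CASK in 7 of 10 (up to 0.0837), and without the 4 libraries with gut transcripts Elk (0.104), Cam (0.0598) and 14-3-3zeta (0.0747) did not pass. The list's median log2 fold change was −0.28 in w1118 and 0.12 in attp2, against 0.01 and 0.03 over all genes. The shares of all genes called in either direction were 8.91% in w1118 and 20.1% in attp2.

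In the RNAi comparison at 1 week, 0 of the 19 passed with edgeR, against 2.41% of all genes, and 3 had an unadjusted p under 0.05. Between LamC RNAi and attp2 at 5 weeks, 6 were higher and 1 lower, against 19.2% of all genes called in either direction. The 6 were qvr (1.57 ± 0.25), Ork1 (1.39 ± 0.30), sand (0.58 ± 0.16), Elk (0.56 ± 0.17), SK (0.55 ± 0.15) and the kinase gene CaMKII (0.30 ± 0.08), and the lower one was Slip1 (−0.33 ± 0.09). Without the libraries with gut transcripts Elk (edgeR adjusted p = 0.161), sand (0.0707), CaMKII (0.247) and Slip1 (0.0574) did not pass, and Elk was also lost in 8 of 10 fits without 1 library.

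A list of 11 calcium, sodium and HCN channel genes, the inward-current counterparts, was tested whole in every comparison. The shares of all genes called were 8.91% with age in w1118 and 20.1% with age in attp2. For LamC RNAi they were 2.41% against attp2 at 1 week and 19.2% against attp2 at 5 weeks. In w1118, stj, an alpha2delta calcium channel subunit, was higher at 5 weeks (1.71 ± 0.44) and Ca-alpha1D, the L-type channel of the heart, lower (−0.79 ± 0.21). With 1 library left out stj, whose groups overlapped, was lost in 7 of 8 fits (edgeR adjusted p up to 0.104) and Ca-alpha1D in 6 of 8 (up to 0.116) and with the replicate block (0.0559). In attp2, 5 were lower at 5 weeks: Ca-alpha1T, the T-type channel (−0.72 ± 0.15), Ca-alpha1D (−0.45 ± 0.11), NaCP60E (−0.42 ± 0.12), Ih, the HCN pacemaker channel (−0.38 ± 0.11), and Ca-beta (−0.36 ± 0.10). The sodium channel subunit gene tipE was higher there (1.41 ± 0.29), at 1.81 CPM at 5 weeks and 0.68 CPM at 1 week. Without the libraries with gut transcripts Ca-alpha1T and tipE still passed, while Ca-alpha1D (edgeR adjusted p = 0.0994), NaCP60E (0.130), Ih (0.117) and Ca-beta (0.144) did not. In the RNAi comparison at 1 week 0 of 11 passed with edgeR, 5 with an unadjusted p under 0.05. Between LamC RNAi and attp2 at 5 weeks, 4 were higher, stj (1.60 ± 0.38), NaCP60E (0.84 ± 0.12), Ca-alpha1D (0.68 ± 0.11) and Ca-alpha1T (0.59 ± 0.15), and tipE was lower (−1.31 ± 0.29).

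For each of the 9, the pair of other genes most like it across libraries was found by the lower of its Pearson correlations of log2(CPM + 1) in the 8 w1118 and in the 15 attp2 and LamC RNAi libraries, among 9444 genes. Libraries of a table share depth, age groups and tissue makeup, and no p is attached. The closest pattern of all belonged to Shal, with Chc, the clathrin heavy chain gene (r = 0.93 in w1118 and 0.94 in attp2), and car (0.96 and 0.92). For sei they were CG7133 (0.96 and 0.92) and Cul2 (0.94 and 0.90), for slo CG43897 (0.90 and 0.89) and CG43740 (0.94 and 0.86), and for Slob ab (0.91 and 0.86) and Argk, the arginine kinase gene (0.85 and 0.87). Those of Shab were side (0.89 and 0.90) and Rim2 (0.90 and 0.85), and those of Sh CR44029 (0.91 and 0.86) and gpp (0.90 and 0.85). Likeness was weaker for Shaw, with CG8617 (0.81 and 0.84) and Tak1 (0.78 and 0.75), and for KCNQ, with sqa (0.80 and 0.85) and CG32813 (0.76 and 0.76). It was weakest for eag, with the neuronal gene fne (0.68 and 0.70) and CG11170 (0.65 and 0.74).

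Members also differed in how far libraries of a group scattered. Shab varied least, with a coefficient of variation of 4.7% to 15.9% over the 5 groups, and sei lay between 10.6% and 21.2%. The coefficient reached 41.6% for slo and 37.5% for Slob in LamC RNAi hearts, where counting error alone gives 2.9% and 2.6%. It was 102.7% for eag in LamC RNAi hearts and 38.7% to 52.6% in its other groups, where counting error gives 15.2% to 22.4%. In these groups the spread between libraries and not the depth was the larger part of the error, apart from groups as tight as Shab in LamC RNAi hearts or slo in w1118 at 1 week (5.1%, counting error 3.8%).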

How the data were processed

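The authors deposited raw counts per gene symbol in 2 tables, 1 for the 8 w1118 libraries and 1 for the 15 attp2 and LamC RNAi libraries. The submitters' processing notes name the dm6 build and the tools cutadapt, STAR and DESeq2, with no version; the read counter, its strand handling and the annotation are points not given in the sources used here. Normalised tables of the authors were not used here.

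The members and the gene and marker lists were chosen with earlier results of these data known. All 9 members are described; the genes named from the lists are those called, and likeness was ranked as stated beside it. The main test was edgeR's quasi-likelihood test (version 4.0.16, R 4.3.3; filterByExpr, TMM, two-sided) on the deposited counts, Benjamini-Hochberg adjusted over all genes tested, at a threshold of 0.05. The w1118 table was fitted alone and the 3 groups of the attp2 table together. An SE is the size of the log2 fold change over the square root of F. Levels are CPM on the TMM scale. Exact permutation tests of mean CPM cannot go below 0.0286 for 4 against 4 libraries, or 0.00794 for 5 against 5. Lengths and positions are from BDGP6.54. The fit was tested on simulated data. Libraries of a group all differed beyond sampling noise, with a chi-square of at least 58.9 per gene in each pair.

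Replicate numbers come from the sample titles. Deviations of same-numbered libraries correlated at 0.15 to 0.47 in all 5 pairs of LamC RNAi and attp2 at 1 week. The rule used takes such values as pairing, but the labels do not say what a number shares. In the column names, same-numbered libraries of these groups carry different letters, whose meaning is not given. No call of a member in that comparison changed with the replicate as a block, a fit that assumes this pairing. By that rule the numbers did not pair the other groups, with correlations down to −0.09. In the RNAi comparison at 1 week, 2 of 5 libraries correlated best with their own number, so pairing is not established there. With age in attp2 3 of 5 correlated best with their own number, with correlations of −0.09 to 0.90, so the rule does not settle pairing there either. Alternatives were DESeq2 1.42.0, its size factors, no filter, a mean CPM of at least 5, 2-group fits, each library left out in turn, and, chosen after seeing the data, the 4 libraries with over 500 CPM of gut markers left out.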

Additional observations from a re-analysis of the deposited data

Results flagged for a closer look

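For each member and group, 45 in all, the highest and lowest library were examined for a gap to the rest of its group, a rule that chance alone meets in about 5% of groups. It singled out 9 libraries. KCNQ stood apart in attp2 library 3 at 5 weeks (9.06 CPM, next highest 3.29 CPM) and in attp2 library 3 at 1 week (13.5 CPM, next highest 6.44 CPM), the pair of libraries with the most gut marker RNA. For Sh it was attp2 library 5 at 5 weeks (13.4 CPM, next highest 7.99 CPM) and w1118 library 4 at 1 week (8.93 CPM, next lowest 13.2 CPM). The BK channel gene slo was lowest in attp2 library 1 at 5 weeks (5.88 CPM, next lowest 8.82 CPM). Its partner Slob was highest in attp2 library 5 at 1 week (69.7 CPM, next highest 54.9 CPM). For eag, LamC RNAi library 1 stood apart (3.52 CPM, next highest 1.01 CPM). Shab was lowest in w1118 library 2 at 5 weeks (10.9 CPM, next lowest 15.1 CPM), and Shaw highest in attp2 library 2 at 5 weeks (51.05 CPM, next highest 33.8 CPM).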

How the results depend on the processing

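The number of members called with age in w1118 was 2, 4 with DESeq2 (which added Sh and Shab) and 1 to 3 with a library left out. With age in attp2 it was 2. It was 3 with only 2 groups fitted (edgeR adjusted p of slo, the gene added, 0.0146) and with DESeq2 (slo, 0.0414). The replicate block also gave 3 (slo, 0.0320), although by the rule used the numbers did not pair these libraries. Without the libraries with gut transcripts the number called was 3 (KCNQ added), and with a library left out 1 to 3. For LamC RNAi against attp2 at 1 week it was 2, 3 with DESeq2 (slo added, adjusted p = 0.0237), 1 with only 2 groups fitted, 1 without the libraries with gut transcripts and 1 to 2 with a library left out, Slob being the call lost. Against attp2 at 5 weeks it was 4, and 4 to 5 with a library left out; the interaction gave 0 in every fit run. The replicate block changed no other call of a member.

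Uncalled values that changed sign were KCNQ against attp2 at 1 week (0.15 without the libraries with gut transcripts; −0.41 to 0.064 with a library left out) and sei in the interaction (−0.038 without those libraries; −0.064 to 0.19). With a library left out, so did KCNQ in the interaction (−0.65 to 0.15), eag (−0.048 to 0.34), Shal (−0.022 to 0.18) and Shaw (−0.0047 to 0.23) with age in attp2, eag (−0.083 to 1.02) and Shal (−0.14 to 0.034) against attp2 at 1 week, and eag (−0.20 to 0.90), LamC (−0.036 to 0.23) and ppk29 (−0.32 to 0.058) against attp2 at 5 weeks. The cause was not tested.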
